A study of Mus musculus with 9 samples.

Results

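Zinc finger genes whose symbol starts with Zfp followed directly by a digit were described in the lens of mouse embryos, with all genes of that name pattern taken as members. In the inbred wild type lens 149 such genes were listed, of which 147 had a single row each and are described together. They made up 1.92% of the 7676 genes with a single row (95% Wilson interval 1.63% to 2.25%). The interval treats genes as independent draws, and measures neither the counting of reads nor the spread between libraries. In the conditional knockout (cKO) and mixed wild type lenses, for which 190 genes were listed, the name pattern found 1 gene, Zfp111.

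The study sequenced RNA of lenses at 15.5 days post conception to ask what loss of Sip1 changes in the developing lens. Sip1 is the protein of Zeb2, itself a zinc finger transcription factor. The cKO lenses were homozygous for a floxed Sip1 allele and carried MLR10Cre, a transgene with a crystallin promoter that drives Cre recombinase in the cells of the lens. The mixed wild type lenses were homozygous for the same floxed allele without Cre, and both of these groups were of mixed strain. The inbred wild type lenses came from the strain C57Bl/6<har>, with neither the allele nor Cre named in their labels. Each group had 3 libraries of 30 pooled lenses each, labelled as independent biological replicates. Depth, recovered from the steps between low values, was 25.9 to 27.4 M reads (M, mega) for the cKO libraries, 38.7 to 44.1 M reads for the mixed and 14.1 to 16.7 M reads for the inbred wild type libraries. Levels are in RPKM, the reads of a gene per kilobase of exon and per M mapped reads of the library.

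The inbred libraries held the genes that define the lens. All 10 lens fibre markers and 5 of 6 lens epithelium markers were listed, against 1 of 10 retina markers and 0 of 10 periocular mesenchyme and 0 of 9 macrophage markers, while 5 of 11 erythroid and 5 of 9 endothelial markers were present. Zeb2 stood at 5.16, 5.96 and 6.31 RPKM in the inbred libraries. It was not among the 190 genes listed for cKO and mixed wild type, so its loss in the cKO libraries was not checked here.

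A C2H2 zinc finger is a short loop in which a pair of cysteines and a pair of histidines hold a zinc ion. Arrays of such fingers read DNA sequence, and some bind RNA or other proteins. The largest group of these proteins in mammals joins the array to a KRAB domain, which recruits the co-repressor Trim28 and silences chromatin, retroelements in particular. A smaller set with CCCH fingers, the Zfp36 family, binds AU-rich messages and hastens their decay. The symbol Zfp is a naming convention, and some of its bearers lack a classical finger.

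Most Zfp genes of the inbred wild type lens were expressed at low levels. Their median level was 4.01 RPKM, against 7.65 RPKM for all listed genes. The median was 3.84, 3.95 and 4.22 RPKM in the 3 libraries, with an SD of 0.19, so the distance to all listed genes was several times the spread between libraries. The quartiles were 2.82 and 6.28 RPKM for the Zfp genes and 4.10 and 16.9 RPKM for all listed genes. A mean of at least 10 RPKM was reached by 15 Zfp genes (10.2%), against 40.7% of all listed genes, and a mean of at least 20 RPKM by 5 Zfp genes (3.40%), against 21.4%. Of all reads assigned to listed genes, the Zfp genes together took 0.443% ± 0.022 (SD, n = 3). These are levels in whole lenses, in which fewer cells of a type and less RNA per cell cannot be told apart. The reads behind a value ran from 35 to 3545 per gene and library, with a median of 258, so that the counting error alone was a median 6.26% of the level.

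**Figure D1:**
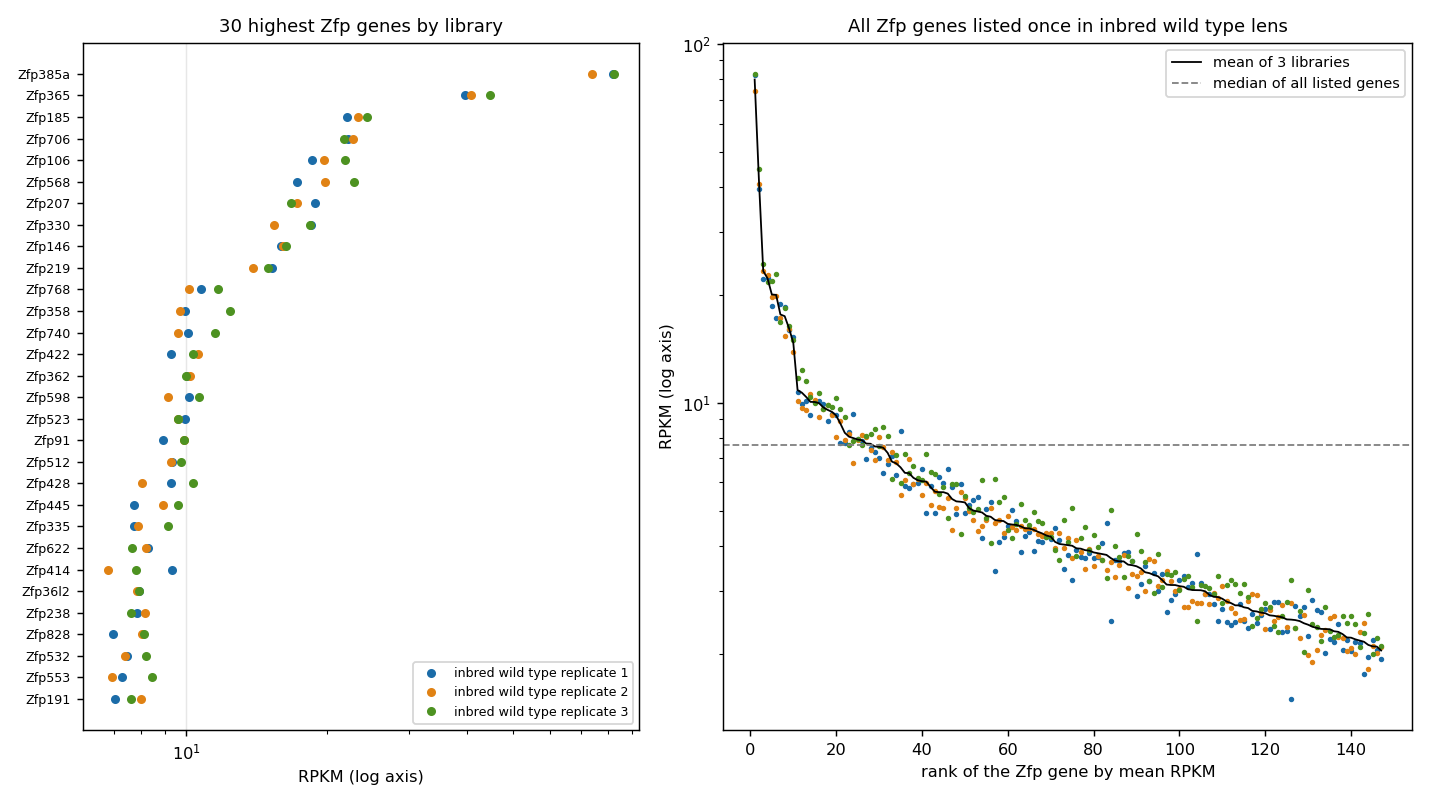
Left, RPKM (log axis) of the 30 highest Zfp genes in each of the 3 inbred wild type libraries; right, all 147 Zfp genes by rank of their mean, with the median of all listed genes dashed. Zfp385a and Zfp365 stand apart at 79.6 and 41.6 RPKM, and most Zfp genes lie below the dashed line at 7.65 RPKM.

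The highest level belonged to Zfp385a, an RNA-binding protein with widely spaced fingers that also binds p53. Zfp385a measured 82.2, 74.1 and 82.5 RPKM (mean 79.6 ± 4.76, SD, n = 3) and ranked 387 of the 7676 genes. Zfp365, the gene of a DISC1-binding protein of the centrosome, measured 39.5, 40.6 and 44.8 RPKM (41.6 ± 2.78). Every library of Zfp385a lay above every library of Zfp365, and every library of Zfp365 above those of the next gene. These 2 genes held 10.6% of all reads of the Zfp genes.

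Below them came a group of 7 genes, Zfp185 to Zfp146, whose libraries overlapped from neighbour to neighbour. Zfp185, known in human cells as a LIM domain protein of the actin cytoskeleton, measured 22.1, 23.3 and 24.4 RPKM (23.3 ± 1.14). Zfp706, which in mouse embryonic stem cells restrains self-renewal, measured 22.2, 22.7 and 21.8 RPKM (22.2 ± 0.48). Zfp106, an RNA-binding protein needed for motor neurons and muscle in mice, measured 18.6, 19.7 and 21.9 RPKM (20.05 ± 1.67). Zfp706 overlapped both of the other genes, while every library of Zfp185 lay above every library of Zfp106. Zfp568, a KRAB protein that represses a placental promoter of Igf2 in mice, measured 17.3, 19.9 and 22.8 RPKM (19.99 ± 2.80). Zfp207, which in human cells carries the checkpoint protein Bub3 to kinetochores, measured 18.9, 17.3 and 16.8 RPKM (17.6 ± 1.11). Zfp330, a nucleolar protein, measured 18.5, 15.4 and 18.4 RPKM (17.4 ± 1.78). Zfp568 was highest in replicate 3 and Zfp207 in replicate 1, so these genes did not follow a common order of libraries. Zfp146, a small protein made almost wholly of fingers, measured 15.97, 16.1 and 16.4 RPKM (16.1 ± 0.22). Zfp219, a partner of Sox9 in cartilage, measured 15.3, 13.9 and 14.996 RPKM (14.7 ± 0.74), with all libraries below those of Zfp146 and above those of Zfp768. Zfp768, Zfp358, Zfp740, Zfp422 and Zfp362 followed at 10.9, 10.7, 10.4, 10.1 and 10.1 RPKM, and their ranges overlapped.

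Of the 146 neighbouring pairs in the order of means, 142 had overlapping ranges. The 4 pairs without overlap were all among the first 11 genes named here, so that below Zfp219 the order of neighbours was not resolved at this depth. The lowest 8 were Zfp316, Zfp84, Zfp346, Zfp955a, Zfp809, Zfp956, Zfp64 and Zfp944, with means of 2.22 RPKM for Zfp316 down to 2.04 RPKM for Zfp944. The listed genes as a whole started at a mean of 2 RPKM, so genes below that level have no value in the inbred libraries. Zfp809, a KRAB protein that in mouse cells recognises the primer binding site of retroviruses, rested on 42, 38 and 47 reads.

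Members with known roles were taken from a list of 39 Zfp genes, of which 26 were listed in the inbred lens. Of the RNA genes, 9 of 11 were listed, with a median of 7.91 RPKM. Zfp598, the ubiquitin ligase that marks collided ribosomes, averaged 9.98 ± 0.77 RPKM (SD, n = 3), and Zfp622 and Zfp593, which act in assembly of the large ribosomal subunit, averaged 8.05 ± 0.35 and 3.999 ± 0.97 RPKM. The message decay factor Zfp36l2 measured 7.93, 7.86 and 7.93 RPKM, and its relative Zfp36 measured 3.14, 2.81 and 3.08 RPKM. Zfp36l2 was higher than Zfp36 in every library, and Zfp36l1 was not listed. Zfp326, of a complex that links splicing to elongation, and Zfp346, which binds double-stranded RNA, averaged 2.59 and 2.18 RPKM.

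Among genes of mitosis and ubiquitin or SUMO, 2 of 3 were listed, Zfp207 and the ubiquitin ligase Zfp91, which averaged 9.56 ± 0.55 RPKM. Of the 6 genes for imprinting, retroelements and pluripotency, 4 were listed. Besides Zfp568 and Zfp809 these were Zfp445, a KRAB protein that guards imprints, at 8.75 ± 0.97 RPKM, and Zfp281, a regulator of pluripotent cells, at 3.12 ± 0.44 RPKM. Zfp57, the other imprint guardian on the list, and Zfp42 (Rex1), a marker of embryonic stem cells, were not listed. Only 2 of 8 genes for developmental and growth factor signalling were listed, Zfp219 and Zfp110, whose protein binds the neurotrophin receptor p75, at 3.62 ± 0.31 RPKM. Zfp423 and Zfp521, BMP and lineage regulators in other tissues, were not among the listed genes. Of the 11 genes for promoters and chromatin, 9 were listed at 2.99 to 8.25 RPKM. Zfp335, a subunit of histone methyltransferase complexes, averaged 8.25 ± 0.78 RPKM, Zfp532 and Zfp687, which bind the chromatin reader Zmynd8, averaged 7.69 and 6.78 RPKM, and Zfp143, a promoter-binding activator, averaged 5.28 ± 0.31 RPKM.

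Partner genes of these proteins had higher medians than the Zfp genes (4.01 RPKM) and all listed genes (7.65 RPKM). The lowest co-repressor and deadenylation genes stood at 2.60 and 2.14 RPKM, so single partners were not all higher. Of 36 KRAB co-repressor and heterochromatin genes, 29 were listed with a median of 12.1 RPKM, against 3.06 RPKM for the 30 Zfp genes with a KRAB pattern. Trim28, the co-repressor that KRAB domains bind, measured 58.5, 61.1 and 65.3 RPKM, above every Zfp gene but Zfp385a. The chromatin remodelling genes Chd4, Gatad2a and Mbd3 followed at 54.9, 40.3 and 36.4 RPKM. Of 37 deadenylation and decapping genes that work with the Zfp36 family, 33 were listed with a median of 9.73 RPKM. They were led by Pabpc1, the poly(A)-binding protein, at 225.8 ± 10.1 RPKM (SD, n = 3).

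Replicate spread was larger than counting error for most Zfp genes, as for most listed genes. The median coefficient of variation (CV, the SD over the mean of 3 libraries) was 8.84%, against 7.21% for all listed genes. Counting error alone had a median of 6.26% for the Zfp genes and 4.57% for all listed genes, which have more reads. The ratio of measured to counting CV was a median 1.44 for the Zfp genes and 1.54 for all listed genes. In 47 Zfp genes (32.0%) the CV lay under the counting error, against 27.4% of all listed genes. The 5 with the smallest spread were Zfp36l2, Zfp362, Zfp35, Zfp146 and Zfp46, with CVs of 0.55% to 1.501%, all under their counting error. A CV of at least 20% was found in 9 Zfp genes (6.12%), against 3.06% of all listed genes.

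The largest spread was that of Zfp266, with 1.497, 2.76 and 3.21 RPKM (CV 35.7%) from 157, 283 and 285 reads. Zfp871 measured 2.46, 3.59 and 5.03 RPKM (CV 34.8%), and Zfp536, a repressor of neuronal differentiation, measured 3.39, 4.62 and 6.13 RPKM (CV 29.1%). All 3 genes were lowest in replicate 1 and highest in replicate 3, and their counting errors were 4.50% to 6.69%. Zfp593 had a CV of 24.2% and Zfp511 one of 22.8%. Zfp511 went the other way, with 8.34 RPKM in replicate 1 against 5.52 and 5.98 RPKM in replicates 2 and 3. Replicate 3 was the highest library for 80 of the 147 Zfp genes (54.4%) and for 52.4% of all listed genes.

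**Figure D2:**
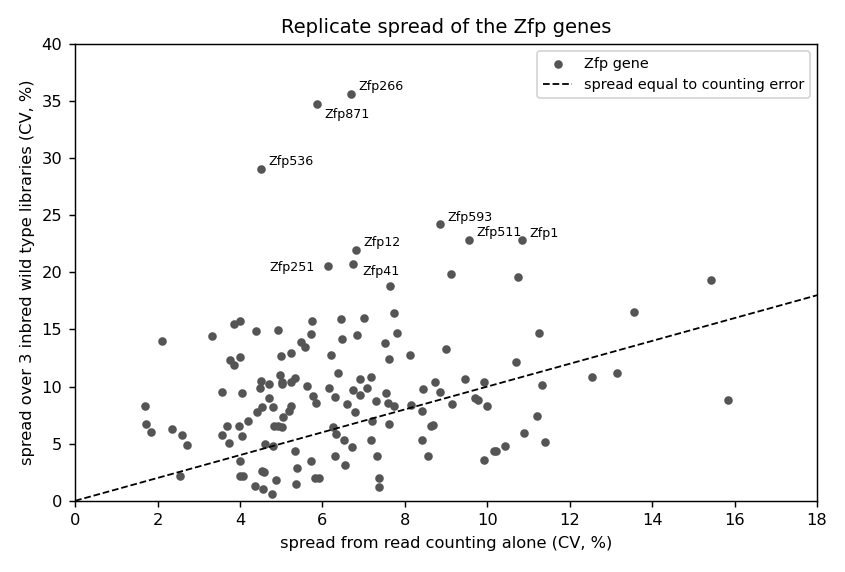
Each point is 1 of the 147 Zfp genes in inbred wild type lens, with its CV over 3 libraries (%) against the CV that read counting alone would give (%), and the dashed line marks equality. The 9 named genes have a CV of at least 20%, with Zfp266, Zfp871 and Zfp536 the farthest from the line.

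Protein patterns were searched in the longest coding sequence of each gene in the GENCODE M21 annotation (build GRCm38). At least 1 C2H2 pattern was found in 141 of the 147 Zfp genes (95.9%), against 3.66% of 21901 protein-coding genes, and the median was 8 per protein. The 6 without were Zfp365, Zfp185, Zfp330, Zfp259, Zfp36 and Zfp36l2. Of these, Zfp36 and Zfp36l2 each had 2 CCCH patterns. A KRAB pattern was found in 30 (20.4%), against 0.963% of protein-coding genes, and 91 had at least 1 of the linkers that join neighbouring fingers. This KRAB pattern covers the opening of the domain in its most common form. A wider pattern, added after seeing that the first missed Zfp111, also took the later section of the domain and matched 38 Zfp genes (25.9%), against 1.35% of protein-coding genes. Zfp236, Zfp646 and Zfp62 had the most fingers, with 30, 27 and 25 patterns, and averaged 2.77 ± 0.41, 4.47 ± 0.22 and 4.60 ± 0.22 RPKM.

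Median levels differed between the classes as follows, with no test made. The 30 genes with a KRAB pattern had a median of 3.06 RPKM, the 34 other genes with 10 or more fingers 4.32 RPKM, the 55 with 4 to 9 fingers 4.01 RPKM, the 22 with 1 to 3 fingers 6.93 RPKM and the 6 without a C2H2 pattern 12.7 RPKM. Of the 30 genes with the first KRAB pattern, 5 reached 5 RPKM: Zfp568, Zfp445, Zfp617, Zfp317 and Zfp386. Zfp568, at 19.99 RPKM, was the only one of them above 10 RPKM. With the wider pattern the 38 KRAB genes had a median of 3.16 RPKM and the other 109 genes 4.53 RPKM. A mean of at least 5 RPKM was then reached by 6 of the 38 and 46 of the 109. Across the 147 genes the rank correlation of finger number with level was -0.22 and that of exon length with level was -0.03. Both describe genes of the same 3 libraries, which are not independent replicates.

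The number of Zfp genes listed was also read against the annotation. GENCODE M21 holds 394 protein-coding genes of this name pattern, of which 144 (36.5%) were listed in the inbred lens under that or an earlier name, against 34.9% of all protein-coding genes. The annotation that the authors used is not given in the sources used here, so a gene that is not listed may also have been outside it. Of Zfp genes with a KRAB pattern, 30 of 171 (17.5%) were listed, and of those without, 114 of 223 (51.1%). With the wider pattern these were 38 of 215 (17.7%) and 106 of 179 (59.2%). By finger number, the listed share was 58.5% at 1 to 3 fingers, 65.1% at 4 to 6, 45.9% at 7 to 9, 30.6% at 10 to 12, 19.3% at 13 to 15 and 18.5% at 16 or more. Within classes of finger number, the share with the first KRAB pattern and the share without it were 24.3% against 67.6% at 7 to 9 fingers, 17.3% against 45.7% at 10 to 12, 15.8% against 26.3% at 13 to 15 and 8.82% against 29.0% at 16 or more.

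Sequence shared between genes also differed over this split, though not in every class of finger number. Zfp genes with the first KRAB pattern shared a median 5.61% of their 31-base words with other genes, and those without shared 2.92%. The order was reversed at 4 to 6 fingers (1.39% against 3.05%, with 5 KRAB genes) and at 13 to 15 fingers (3.76% against 28.8%). Among genes sharing under 1% of words, 8 of 43 with a KRAB pattern (18.6%) and 52 of 85 without (61.2%) were listed. Among genes sharing at least 50%, these were 2 of 19 (10.5%) and 6 of 25 (24%). With the wider pattern 23.4% of 47 and 60.5% of 81 genes were listed under 1%, and 10% of 30 and 35.7% of 14 at 50% or more. The part of sequence sharing in the listed share of KRAB genes was not tested.

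**Figure D3:**
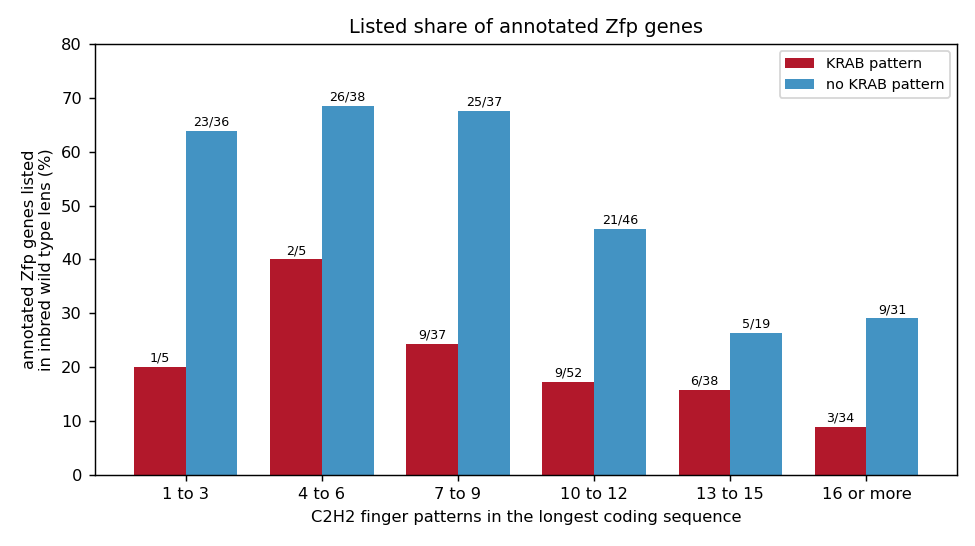
Percentage of the annotated Zfp genes that were listed in inbred wild type lens, by number of C2H2 patterns, for genes with the first KRAB pattern (red) and without it (blue), with listed and annotated gene numbers over each bar. The red bar is the lower one in every class, with 9 of 37 against 25 of 37 genes at 7 to 9 fingers.

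Zfp genes lie in clusters, and the listed share differed between chromosomes. Chromosome 7 held 92 annotated Zfp genes, of which 35 were listed, while chromosome 13 held 36, of which 3 were listed, and chromosome 4 held 30, of which 6 were listed. On chromosome 15, by contrast, 8 of 11 were listed. The Zfp genes of chromosomes 4 and 13 shared a median 43.5% and 19.1% of their words with other genes. Those of chromosome 7 shared 2.69% and those of chromosome 15 shared 0.517%. Not every chromosome with little sharing had a high listed share. On chromosome X 2 of 9 genes were listed with a median sharing of 0%, and on chromosome 11 7 of 21 with 0.394%. The part of this sharing in the listed numbers was not tested. In 13 places, 2 or more listed Zfp genes were direct neighbours. The longest run lay on chromosome 6 and held 5 genes, Zfp282 (3.11 ± 0.24 RPKM), Zfp212 (4.05 ± 0.35 RPKM), Zfp956 (2.10 ± 0.09 RPKM), Zfp777 (3.46 ± 0.38 RPKM) and Zfp746 (5.40 ± 0.85 RPKM). No gene of this run reached the median of all listed genes.

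Shared sequence can also bear on the values of single Zfp genes, since reads from near-identical stretches cannot be placed with certainty. The median sharing was 1.84% of words for the 147 Zfp genes and 0.911% for all listed genes, and 23 Zfp genes (15.6%) shared at least 20%, against 13.4% of all listed genes. The highest values were 94.8% for Zfp784, 72.4% for Zfp593, 66.0% for Zfp955a and 63.8% for Zfp955b. The levels of these 4 genes may be uncertain for that reason. Words shared with an overlapping gene were counted too, and the effect of sharing on these levels was not tested.

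The authors' second value, a normalized expression value, was set against the recovered reads of each gene. In 9 Zfp genes (6.12%) the normalized value per read was under 0.7 of the typical gene's, against 11.4% of all listed genes. Of these 9, 8 shared at least 10% of their words with other genes, against 25 of the other 138. Zfp593 and Zfp187 were among them, at 0.382 and 0.216 of the typical value with 72.4% and 25.1% of words shared. Zfp266 was the exception, at 0.211 of the typical value with 0.24% of words shared, and it was also the gene with the largest spread.

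**Figure D4:**
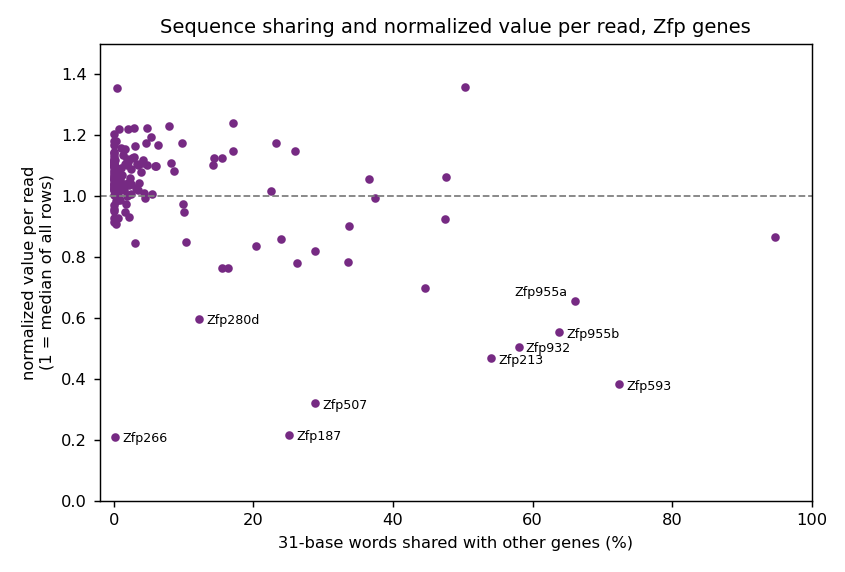
For each of the 147 Zfp genes, the authors' normalized value per read relative to the median of all rows (dashed line at 1), against the percentage of 31-base words shared with other genes. The 9 named genes lie under 0.7, and all of them but Zfp266 share at least 10% of their words.

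Zfp131 and Zfp664 had 2 rows each and were left out of the counts above. The rows of Zfp131 have the same exon length, 3067 bases. They held 121, 197 and 175 reads and 221, 121 and 89 reads in replicates 1 to 3, with CVs of 27.2% and 41.5%. Their sum, 342, 318 and 264 reads, varied by 4.67% once divided by depth, so the rows moved in opposite directions while their sum was steady. The rows of Zfp664, with exon lengths of 5729 and 4395 bases, averaged 16.5 ± 1.97 and 2.42 ± 0.15 RPKM (SD, n = 3). Normalized values per read were 0.087 and 0.094 of the typical value for the rows of Zfp131, and 0.0116 and 0.006 for those of Zfp664. These genes shared only 0.065% and 0.0494% of their words with other genes. The source of these low values was not tested.

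Zfp111 was the Zfp gene listed for cKO and mixed wild type lenses. Its protein has 14 C2H2 patterns, and its KRAB domain is matched by the wider pattern only. Zfp111 measured 2.89, 3.17 and 3.05 RPKM in the cKO libraries (3.04 ± 0.14, SD, n = 3), against 0.86, 0.78 and 0.82 RPKM in the mixed wild type libraries (0.82 ± 0.04). The groups did not overlap, as in all 190 of the 190 genes, and the cKO mean was 3.70-fold that of mixed wild type. On the log2(RPKM + 0.5) scale the difference was 1.42 with an SE of 0.09 (limma adjusted p = 4.52e-08), while an exact two-sided permutation test of the 6 libraries gave p = 0.1, the smallest it can give. The authors' normalized expression values were 693, 773 and 727 in cKO and 246, 241 and 252 in mixed wild type, a 2.97-fold ratio.

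This call says little about Zfp111 among the listed genes, because 189 of the 190 genes were called (99.5%) and 103 (54.2%) were higher in cKO. Every one of the 190 differed by at least 2.505-fold in mean normalized value, so the list had been chosen on these libraries, and its median log2 difference was 1.37. The ratio of Zfp111 ranked 75 among the 103 genes that were higher in cKO, whose median ratio was 5.22. With quantile normalization the median difference of the 190 genes moved by -1.18 and that of Zfp111 was 0.10 (limma adjusted p = 0.127). That scaling gives every library the same distribution of values. Over a list chosen to differ this cannot be assumed, so the result does not decide how firm the call is. Zfp111 had no value in the inbred list, whose lowest mean was 2 RPKM, above the 0.82 RPKM of mixed wild type. Its exon length is not in the files used here, so the reads behind its values were not recovered.

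A few cell type markers were also among the 190 genes. Every gene of that list differed between these groups, so a marker with a value had to differ as well. The 2 of 11 erythroid markers among the 190 genes, Hba-a2 and Hba-x, summed to 84.6 to 144 RPKM in cKO, against 398 to 538 RPKM in mixed wild type. Tek, 1 of 9 endothelial markers, measured 7.84 to 8.61 RPKM in cKO, against 2.51 to 2.82 RPKM in mixed wild type. The fibre markers Birc7 and Dnase2b, 2 of 10, summed to 15.99 to 21.04 RPKM in cKO, against 62.7 to 70.7 RPKM in mixed wild type. The other markers have no value in these groups, and the part of cell composition in the Zfp111 difference was not tested.

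Of the 68 genes of other zinc finger name families that were listed in any file, 67 were in the inbred list, with a median of 4.48 RPKM, and 3 had values in cKO and mixed wild type. Zbtb4, which binds methylated DNA, averaged 5.15 ± 0.39 RPKM in cKO and 1.47 ± 0.13 RPKM in mixed wild type (log2 difference 1.52, limma adjusted p = 6.28e-08). Zbtb7b, known for setting the helper fate of T cells, averaged 15.7 ± 0.73 RPKM in cKO and 35.7 ± 2.43 RPKM in mixed wild type (log2 difference -1.16, limma adjusted p = 1.07e-07). Prdm16, a regulator of brown fat, averaged 3.75 ± 0.39 RPKM in cKO and 8.79 ± 1.04 RPKM in mixed wild type (log2 difference -1.13, limma adjusted p = 1.91e-06). Zfp111 and Zbtb4 were thus higher in cKO, and Zbtb7b and Prdm16 lower. Of the co-repressor list 0 genes had values in these groups. Of the deadenylation list 1 had, Btg2, a growth inhibitor that binds the deadenylase, which averaged 22.3 ± 0.85 RPKM in cKO and 6.80 ± 0.55 RPKM in mixed wild type (limma adjusted p = 1.13e-08).

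**Figure D5:**
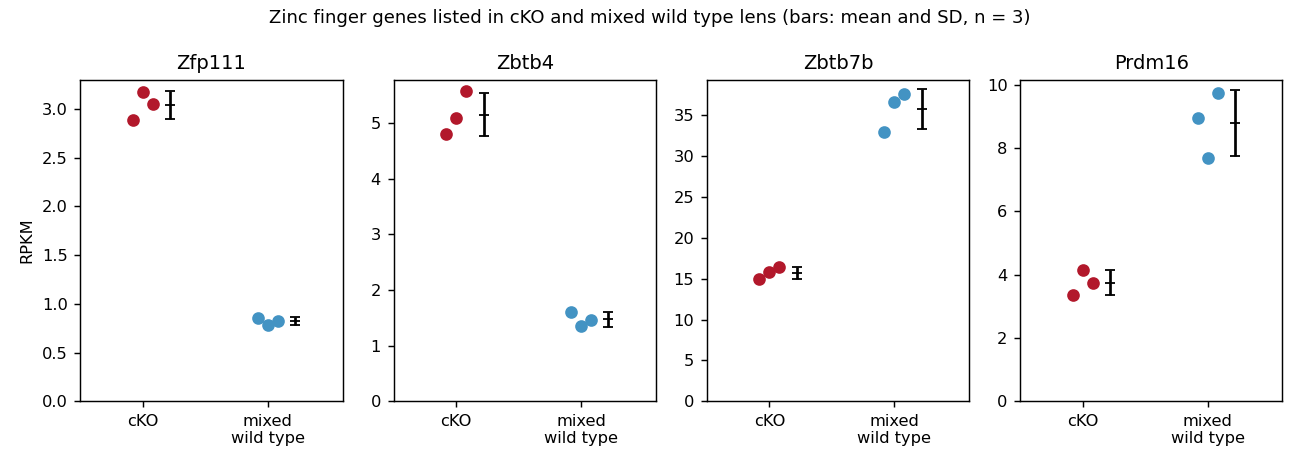
RPKM of Zfp111 and of the 3 other zinc finger genes with values in cKO (red) and mixed wild type (blue) lenses, each point a library and the bars mean ± SD (n = 3 each). Zfp111 and Zbtb4 lie higher in cKO, Zbtb7b and Prdm16 lower, and in each gene the groups do not overlap, as in all of the 190 listed genes.

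Zfp111 lies on chromosome 7 in a cluster of 10 Zfp genes in a row. Of these, Zfp180 (6.05 RPKM), Zfp109 (4.37 RPKM), Zfp93 (2.53 RPKM) and Zfp61 (2.55 RPKM) were listed in inbred wild type lens. Zfp112, Zfp235, Zfp114, Zfp108 and Zfp94 were listed in no group. The wider KRAB pattern matched 9 of the 10 proteins, and Zfp111 shared 6.67% of its words with other genes.

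A motif of the type bound by Zfp143, ACTACA, 2 free bases and TCCC, read on both strands, was searched in RefSeq promoter windows of 250 bases before to 50 bases after a gene's start (GRCm38.p6). It was chosen after levels and sequences had been seen. Windows were found for 119 of the 147 Zfp genes. Of their 154 windows 16 held the motif (10.4%), as did 44 of 266 windows of Zfp genes outside the 147, Zfp111 among them (16.5%). The share was 4.28% for windows of all listed genes and 1.81% for all 32851 windows. A match describes letters and not binding. The listed Zfp genes and Zfp111 together held 18 matches, 10 of them on chromosome 7 and 11 in the orientation opposite to the gene. Chromosome 7 also held 35 of the 144 annotated Zfp genes that were listed, and neither place nor orientation was tested. Matches are shown for Zfp111, for the listed genes of its cluster and for the 2 highest genes that hold one, Zfp146 and Zfp219. Each has 8 bases on either side, and the motif is in capitals.
Zfp111 (chr7:24208194-24208221, plus strand): cttttgggACTACATTTCCCagaatgct
Zfp180 (chr7:24081866-24081893, minus strand): tcaatggaACTACAATTCCCagaactct
Zfp109 (chr7:24237704-24237731, plus strand): gcgccggaACTACAGTTCCCagaatgcg
Zfp93 (chr7:24270338-24270365, minus strand): gcgttggaACTACAATTCCCagaattcc
Zfp146 (chr7:30169852-30169879, plus strand): gactttggACTACACTTCCCacaaggca
Zfp219 (chr14:52019701-52019728, plus strand): cacccgagACTACAAATCCCaggatgcc
The 4 sites of Zfp111 and of listed genes of its cluster lay 23 to 125 bases before the start of their gene. Each was opposite to the direction of its gene. Sites of the cluster genes that were listed in no group were not looked at one by one. In inbred wild type lens the 3 listed genes of the cluster that hold a site ranged from 2.53 RPKM for Zfp93 to 6.05 RPKM for Zfp180, and Zfp111 was the gene of the cluster with a value in cKO lenses.

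Zfp111 has 2 promoter windows, and the first is given because Zfp111 is the Zfp gene that was measured in cKO lenses (chr7:24208100-24208399, minus strand, GRCm38.p6). The motif of the Zfp143 type had no match in the other window. The capitals mark, in this order, the match to the motif of the Zfp143 type and a match to CACCT, a core sequence bound by Zeb2, both of which read as the reverse complement in the direction of the gene.
Zfp111 promoter: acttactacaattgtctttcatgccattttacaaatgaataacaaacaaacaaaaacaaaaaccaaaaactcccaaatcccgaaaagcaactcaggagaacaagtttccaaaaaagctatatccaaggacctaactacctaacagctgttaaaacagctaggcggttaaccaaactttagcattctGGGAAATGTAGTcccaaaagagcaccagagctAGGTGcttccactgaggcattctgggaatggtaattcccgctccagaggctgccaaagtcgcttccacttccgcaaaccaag
The core CACCT was searched on both strands after the values had been seen. It had 2 matches over the 2 windows of Zfp111, 1 of them in the window shown. It was present in 44.8% of windows of the listed Zfp genes, against 48.0% for all listed genes and 51.9% of all windows, so a match in a window of this length is common. Its longer form, the E-box CACCTG, had 0 matches in the windows of Zfp111 and was present in 13.6% of windows of the listed Zfp genes, against 16.2% for all listed genes and 20.2% of all windows.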

How the data were processed

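RNA of mouse lens was sequenced in 9 libraries, 3 per group. Per the labels' protocols, total RNA was made into TruSeq libraries. Per the submitters' processing notes, CASAVA 1.8.2 was used, and the sources used here give no aligner, build or annotation. The authors deposited, per the file headers, RPKM and a normalized expression value, a score with no stated unit, per gene, and exon lengths for inbred wild type. Reads and depth (14.1 to 44.1 M) were recovered from RPKM multiplied by exon length, which was whole within 0.1 reads in 100% of the low values used.

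The members and lists were chosen with earlier results of these data known. Symbols with 2 rows were left out. Genes were named by rule: the 15 highest and 8 lowest, the 5 largest and 5 smallest CVs, members with known roles, those with the most and fewest fingers, the longest run, and of other lists the highest 4 and those measured in cKO. Genes outside this rule, those singled out by sequence sharing, normalized value per read or class, were chosen after their values were seen. Groups were compared by limma 3.58.1 with its trend option (R 4.3.3), fitted to log2(RPKM + 0.5) for genes averaging 1 RPKM or more over the 6 libraries, with Benjamini-Hochberg adjustment at 0.05. The step was tested on simulated data.

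Protein patterns were read from translated GENCODE M21 transcripts, where RefSeq proteins had been planned, and a wider KRAB pattern and the motif CACCT were added after seeing the data. Sharing is how many of the 31-base words in the longest transcript of a gene recur in other genes, in percent. Of the 147 symbols, 138 matched GENCODE M21 by name and 9 by a later name. Python 3.11.15 was used with pandas 2.3.3 and scipy 1.17.1.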

Additional observations from a re-analysis of the deposited data

How the results depend on the processing

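The Zfp111 difference between cKO and mixed wild type, 1.42 on the log2(RPKM + 0.5) scale, stayed positive under all 14 alternatives run. It was 0.10 with quantile normalization (limma adjusted p = 0.127), the only alternative that ended the call, and 0.54 with median centring (limma adjusted p = 8.49e-05), which moved the median of the 190 genes by -1.18 and -0.88. Both scalings take the libraries as alike over a list chosen to differ, so they cannot decide how firm the call is. The Zfp111 difference was 1.77 and 1.15 with pseudocounts of 0.1 and 1 and 1.53 with the normalized values, and 1.39 to 1.45 with each library left out. Same-numbered libraries deviated with correlations of -0.0999, -0.107 and -0.1459, so the numbers did not pair them; with the replicate number as a block the difference was 1.42 (limma adjusted p = 7.88e-13) and 189 genes were called. The calls numbered 127 of the genes shared by all 9 libraries to 190, and 185 to 190 with a library left out. A mean of at least 2 RPKM removed Zfp111, and the joint fit could not include it. Zfp111 has no inbred value, so the planned comparisons with inbred wild type give none and their counts, over lists without a Zfp gene, were not run.

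The median level of the Zfp genes, 4.01 RPKM, was 7.79 RPKM over those with at least 5 RPKM, 5.93 with depth taken as the reads outside crystallin genes and 4.32 from normalized values per kilobase, and 4.01 to 4.14 RPKM with a library left out. Their share of listed genes, 1.92%, was 1.02% among genes of at least 5 RPKM. Depth limits the low members, whose order is not resolved.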
